A study of Mus musculus with 6 samples.

Results

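Amino acid transporters of 7 solute carrier families were followed in mouse kidney cortex 1 day after surgery, in kidneys with IRI and renal congestion and in kidneys with IRI alone. IRI usually stands for ischaemia-reperfusion injury, damage from an interrupted and then returning renal blood supply. The members are all features of the count table whose symbol falls in the SLC1, SLC3, SLC6, SLC7, SLC36, SLC38 or SLC43 family. There were 54 of them among 26971 features, and 41 had at least 10 counts in at least 3 of the 6 libraries and were tested among 14398 features.

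Congested kidneys carry the treatment label IRI with IVCC and IRI kidneys the label IRI, with 3 libraries each, numbered 1 to 3 in both groups. All came from male C57BL/6 mice at day 1, with no genotype change in the labels. The sample titles and count columns also use Cong and CLK, and neither IVCC nor CLK is expanded in the labels. The labels give no age, and no sham or uninjured kidney is used here, so every value stands within injured tissue. They do not state whether each library is a separate animal, and the p-values speak only of the scatter among these libraries, which may be technical. In bulk RNA, fewer cells of a type and less RNA per cell cannot be told apart.

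The proximal tubule takes filtered amino acids back from urine. Apical carriers on the urine side, many of them driven by sodium, bring amino acids into the cell, and exchangers and uniporters on the basolateral side pass them on to the blood. Several SLC7 carriers work only as a pair with a heavy chain, rBAT (Slc3a1) on the apical side or 4F2hc (Slc3a2) in basolateral and most other membranes. Other members feed growing or stressed cells, empty lysosomes, or carry osmolytes such as taurine and betaine.

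Libraries held 10865860 to 14350425 counts. A principal component analysis of the 1000 genes that varied most put 68.1% of the variance on its leading axis, where replicate 1 of both groups stood at -42.3 in congested and -39.5 in IRI kidney, and the other 4 libraries at 10.1 to 32.9. Defining markers of cortical tubule were present in every library. Summed levels of 8 proximal S1 and S2 markers were 5117, 11713 and 12721 CPM (reads per 1000000, scaled by TMM factors) in congested replicates 1, 2 and 3, and 6852, 12557 and 13071 CPM in IRI replicates 1, 2 and 3. Of 7 lymphocyte markers 1 was tested, and Cd3e, Cd3d, Cd4, Cd79a, Ms4a1 and Nkg7 had 0 counts in at least 1 library. All values per library below run in the order of replicates 1, 2 and 3 and are in TMM-scaled CPM unless said otherwise.

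No amino acid transporter was called between congested and IRI kidney by the test across all genes, which does not show that levels were equal. In the quasi-likelihood test of edgeR with Benjamini-Hochberg adjustment, 0 of 14398 features passed an adjusted p of 0.05 (0%), with or without the replicate number as a block (0% again). At an unadjusted p under 0.05 the counts without the block were 288 features (2%) and 0 members. With the block they were 1015 features (7.05%) and 4 members (9.76%), namely Slc7a11, Slc7a8, Slc1a2 and Slc38a4, all 4 higher in congested kidney, against 585 of all features (4.06%) that were higher at that p. DESeq2 with the block called 8 features (0.0556%) and no member, and DESeq2 without it gave 355 features at an unadjusted p under 0.05 and none after adjustment.

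Most transporters lay slightly higher in congested kidney. The log2 fold change was above 0 for 31 of 41 members (75.6%) without the block, against 49.7% of all features, and for 32 of 41 (78%) with it, against 50.7%. The members' median was 0.16 on the log2 scale without the block, against -0.0042 for all features, and 0.19 with it, against 0.0062. Without replicate 1 of both groups 32 of 41 members were above 0, and the median was 0.17. Scaling by total counts alone put 37 of 41 members above 0 with a median of 0.26, but moved the median of all features to 0.095 as well. Leaving out a library moved the median to 0.11 (congested replicate 2 out) or 0.37 (IRI replicate 3 out). With the block and the length and GC trend removed, 29 of 41 were above 0, with a median of 0.14, against -0.0022 for all features. No test was made of these counts or medians, which describe the members in these 6 libraries.

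Markers of other cortical cells also lay to one side with the block. Above 0 were 6 of 6 stromal markers (median 0.32), 4 of 5 endothelial ones (0.39), 5 of 7 of macrophages (0.29) and 4 of 4 of podocytes (0.12). Below 0 were 6 of 6 markers of the thick ascending limb (-0.24), 4 of 4 of the distal tubule (-0.64) and 7 of 8 of the collecting duct (-0.49). Medians varied over numbers 1, 2 and 3, some in sign. They were 0.066, -0.98 and -0.028 for thick ascending limb, -0.99, -0.21 and -0.054 for distal tubule and -0.49, -0.75 and -0.043 for collecting duct. Stroma had 0.025, 0.22 and 0.80, endothelium 0.49, 0.46 and -0.16, macrophages 0.74, 0.23 and -0.024, and podocytes -0.0068, 0.33 and -0.039. Summed stromal levels were 253 to 411 CPM in congested and 157 to 344 CPM in IRI kidney, and endothelial ones 205 to 229 CPM in congested and 177 to 207 CPM in IRI kidney. Collecting duct levels were 359 to 913 CPM in congested and 575 to 1196 CPM in IRI kidney. The 8 proximal S1 and S2 markers were split, 4 above 0, with a median of 0.02. The part of the makeup of the tissue in the members' shift was not tested.

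Taken by number, replicate 3 did not share the shift, but for replicates 2 and 3 this pairing rests on the numbering alone. In the fit without the block, 37 of 41 members were above 0 without IRI replicate 3 and 27 without congested replicate 3. Within equal numbers, congested kidney was above IRI kidney for 33 of 41 members in number 1 (80.5%, against 50.3% of all features), for 33 in number 2 (80.5%, against 50.6%) and for 20 in number 3 (48.8%, against 49.6%). The members' medians were 0.24, 0.41 and -0.0061 log2 units in numbers 1, 2 and 3. In all 3 numbers 14 members were higher (34.1%, against 13.1% of all features), and 7 of the 14 belonged to the SLC7 family, which had 11 tested. Only Slc7a13 was lower in all 3 (2.44%, against 13.1%).

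**Figure D1:**
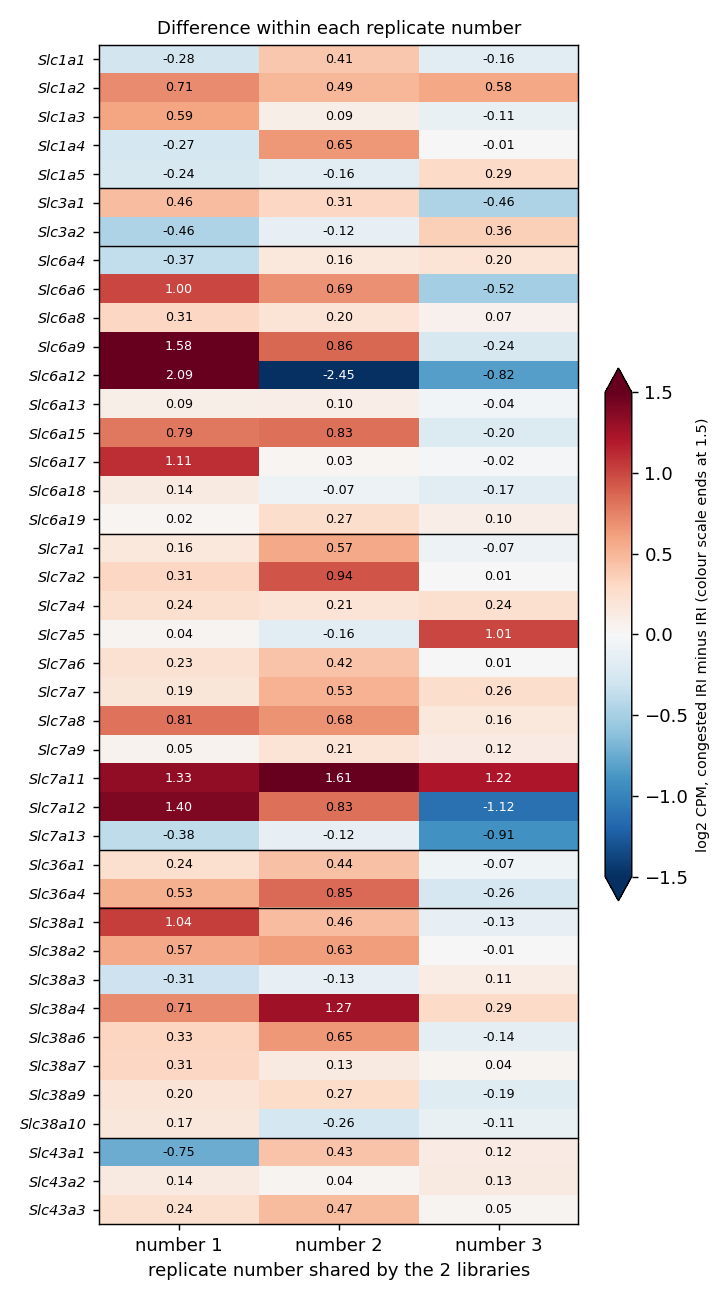
Difference in log2 CPM, congested minus IRI kidney, within replicate numbers 1, 2 and 3 (columns) for the 41 tested members (rows, by family); the colour scale ends at 1.5 in either direction. Columns 1 and 2 are mostly on the higher side (33 of 41 each), column 3 is mixed (20 of 41), and Slc7a13 is the member below 0 in all 3.

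When replicate 3 of both groups was left out of the fit with the block, an alternative chosen after seeing the data, 12 members passed an adjusted p of 0.05 in edgeR (29.3%), all higher in congested kidney. They passed among 5487 features (38.1%), so their share was below that of all features. This fit has 1 residual degree of freedom and a common biological coefficient of variation of 0.116, against 0.233 and 0.247 when number 1 or number 2 was left out, where no member passed. The 12 were Slc3a1, Slc6a6, Slc6a9, Slc6a15, Slc7a7, Slc7a8, Slc7a11, Slc36a1, Slc36a4, Slc38a1, Slc38a2 and Slc38a4, with log2 fold changes of 0.35 (Slc36a1) to 1.47 (Slc7a11).

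The largest fold change of a member belonged to Slc7a11, which encodes xCT, the exchanger that brings cystine into cells for glutathione synthesis in return for glutamate. Its level was 24.2, 1.90 and 0.628 CPM in congested kidney and 9.54, 0.512 and 0.177 CPM in IRI kidney. The reads behind these levels were few outside number 1, with 270, 26 and 8 counts in congested kidney and 120, 6 and 2 counts in IRI kidney. The groups overlapped because number 1 was far above numbers 2 and 3 in both, while congested kidney was higher within every number, by 1.33, 1.61 and 1.22 log2 units.

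With the block the log2 fold change of Slc7a11 was 1.53 ± 0.31 (SE, n = 3 per group; edgeR, unadjusted p 0.00105, adjusted p 0.578). Without the block it was 1.37 ± 1.55 (SE; edgeR adjusted p 0.935), and without congested replicate 1 that value was -1.42. Once a trend with transcript length and GC content was removed, the blocked value was 0.88. Summed levels of 6 neutrophil markers ran with it, at 222, 16.1 and 7.77 CPM in congested kidney and 74.1, 8.62 and 4.95 CPM in IRI kidney, and all 5 tested ones were above 0 with the block (median 1.63). Of 6 tubular injury markers 4 were above 0 with the block (median 0.20) and 2 without it (median -0.085), and 2, 4 and 6 were above 0 in numbers 1, 2 and 3. Their sums were 64272, 18009.6 and 10719.7 CPM in congested kidney and 46872, 15767 and 6153 CPM in IRI kidney, and were mostly Spp1 (59298 CPM in congested replicate 1 and 40232 CPM in IRI replicate 1). The part of these cells and of injury in the Slc7a11 difference was not tested.

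The Slc7a11 promoter is shown because it held more than 1 match to the core of the C/EBP-ATF response element, the site through which ATF4 acts in amino acid shortage. The gene lies on the minus strand at chr3:49892526-50443614 (GRCm38, GENCODE M21). The 250 bases before its start, chr3:50443614-50443863 on the minus strand (RefSeq, GRCm38.p6), follow, with the matches in capitals.
Slc7a11: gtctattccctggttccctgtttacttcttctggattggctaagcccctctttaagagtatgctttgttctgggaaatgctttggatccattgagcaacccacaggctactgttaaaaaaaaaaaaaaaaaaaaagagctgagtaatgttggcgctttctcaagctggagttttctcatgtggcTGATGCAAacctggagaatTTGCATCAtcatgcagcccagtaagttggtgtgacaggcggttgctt

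The motif searched was TGATGNAA on both strands. The matches lie 66 to 59 and 47 to 40 bases before the start, on opposite strands. At least 1 match was in 1134 of 32851 promoter windows of the same length (3.452%) and at least 2 in 13 (0.03957%). Promoter windows were matched for 37 members, 28 of them tested, in 58 windows, and 3 of the 58 held the motif, 1 of Slc7a11 and 2 of Slc7a7. The antioxidant response element core TGACNNNGC was in 8 member windows and in 10.16% of all windows, with none in that of Slc7a11, and the HNF1 core was in 0 member windows and 0.9376% of all. The motifs do not overlap one another in the window printed, and a match describes letters only.

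Among the carriers of the apical membrane, Slc7a13 had the largest difference. It encodes AGT1, an aspartate, glutamate and cystine carrier that pairs with rBAT in the S3 segment, the last part of the proximal tubule. Its level was 55.6, 231 and 262 CPM in congested kidney and 72.5, 250.4 and 492 CPM in IRI kidney. The groups overlapped, and the within-number differences were -0.38, -0.12 and -0.91 log2 units. The blocked log2 fold change was -0.47 ± 0.22 (SE; edgeR, unadjusted p 0.0608, adjusted p 0.578), and the value without the block was -0.57 ± 0.75, or 0.18 without IRI replicate 3.

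S3 markers lay on the same side as Slc7a13. Of 8 such markers 7 were lower in congested kidney in all 3 numbers, with a blocked median of -0.50, and their summed levels were 1104, 2202 and 2709.9 CPM in congested kidney and 1152, 2664 and 3588 CPM in IRI kidney. Whether Slc7a13 moved apart from the S3 segment as a whole was not tested.

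Slc7a9, the b(0,+)AT carrier of cystine and basic amino acids, is the other partner of rBAT and is impaired in cystinuria. It had 67.1, 101 and 112 CPM in congested kidney and 64.7, 86.9 and 103 CPM in IRI kidney, slightly higher within each number (0.05, 0.21 and 0.12 log2 units). The heavy chain itself, Slc3a1, was at 263, 509 and 548 CPM in congested kidney and 191, 411 and 756 CPM in IRI kidney. It was therefore higher in congested kidney in numbers 1 and 2 and lower in number 3, and its blocked log2 fold change was 0.10 ± 0.24 (SE; edgeR adjusted p 0.86).

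Per kilobase of transcript, the balance between the light chains of rBAT varied between libraries. Slc7a13 made up 44.7%, 69.1% and 69.4% of the sum of Slc7a13 and Slc7a9 (CPM per kilobase) in congested kidney and 52.2%, 73.7% and 82.3% in IRI kidney. The share was lower in congested kidney within each number, and the groups overlapped. Slc3a1 stood at 116, 224 and 241 CPM per kilobase in congested kidney and 84.1, 181 and 333 CPM per kilobase in IRI kidney, above either light chain in all 6 libraries.

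**Figure D2:**
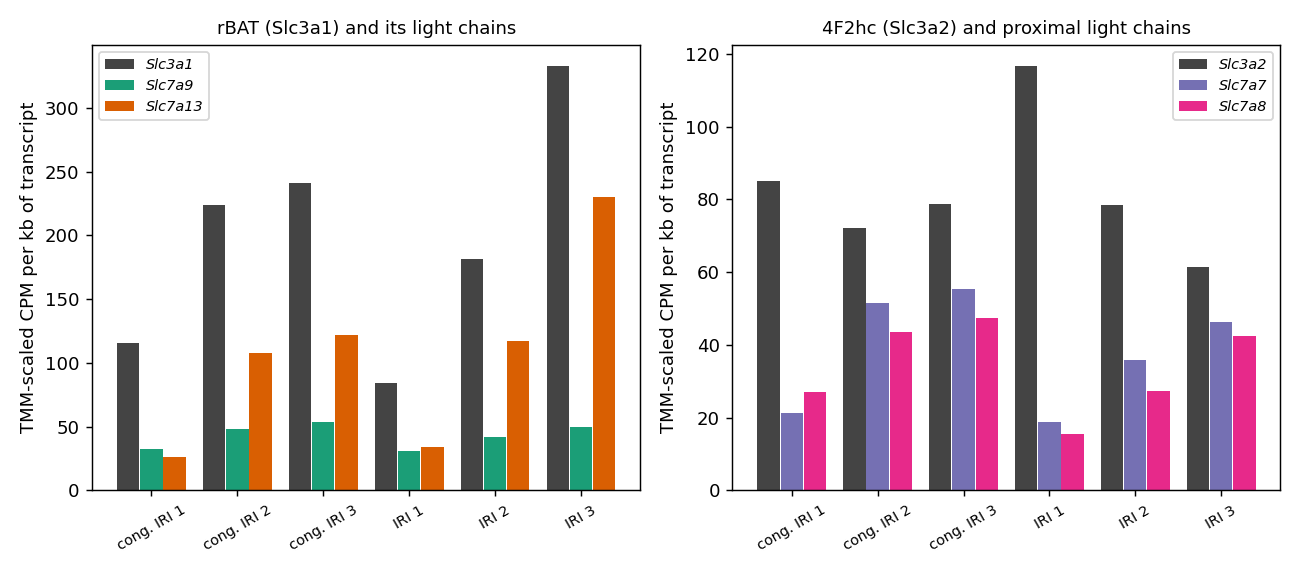
CPM per kilobase of transcript in each library (bars, no error; congested libraries left of IRI libraries) for rBAT with its light chains (Slc3a1, Slc7a9, Slc7a13) and 4F2hc with 2 of its light chains (Slc3a2, Slc7a7, Slc7a8). Slc7a13 is lowest in replicate 1 of both groups, and Slc3a1 is lower in congested than in IRI kidney in number 3 only.

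The sodium-driven apical carriers were close in both groups. Slc6a18 (B0AT3), a carrier of glycine and alanine, was at 1459.6, 1082 and 1333 CPM in congested kidney and 1328, 1139 and 1502 CPM in IRI kidney, a blocked log2 fold change of -0.04 ± 0.20 (SE). Slc6a19 (B0AT1), the main carrier of neutral amino acids and the gene of Hartnup disorder, was at 209.5, 209.7 and 248 CPM in congested kidney and 206, 174 and 233 CPM in IRI kidney (0.13 ± 0.18). Their groups overlapped, and per kilobase Slc6a18 averaged 311 in congested and 319 in IRI kidney, the highest of all members in both groups.

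Slc1a1 (EAAT3), the apical glutamate and aspartate carrier, was at 124, 208 and 205 CPM in congested kidney and 150.4, 157 and 229 CPM in IRI kidney, with group means of 179 ± 47.6 and 179 ± 43.7 CPM (SD, n = 3). Slc6a13 (GAT2) also carries GABA and taurine. It is listed here with the uptake carriers, but these data do not show on which membrane it lies. Its level was 37.4, 110.0 and 161 CPM in congested kidney and 35.1, 103 and 166 CPM in IRI kidney. Libraries of equal number were almost alike for Slc6a13, differing by at most 0.10 log2 units, and number 1 was the lowest in both groups. Of 7 tested carriers listed as apical, Slc6a13 among them, 4 had a blocked log2 fold change above 0 (57.1%, against 78% of members). Their median of 0.05 was the value of Slc6a13 itself.

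Of 8 basolateral carriers 6 had a blocked log2 fold change above 0 (75%, against 78% of members and 50.7% of features). Within all 3 replicate numbers 6 of the 8 were higher, as were 34.1% of members and 13.1% of features, and none was called. The blocked median of the 8 was 0.28, or 0.16 with the length and GC trend removed, and no test set them against the apical carriers. Slc7a8 (LAT2), a 4F2hc partner that exchanges neutral amino acids, was at 110.4, 178 and 193 CPM in congested kidney and 62.7, 111 and 174 CPM in IRI kidney. Each congested library was above the IRI library of its number, by 0.81, 0.68 and 0.16 log2 units, though the groups overlapped. The blocked log2 fold change was 0.55 ± 0.20 (SE; edgeR, unadjusted p 0.0268, adjusted p 0.578), and the one without the block 0.47 ± 0.40, ranging over 0.18 to 0.88 when a library was left out.

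Slc7a7 (y+LAT1), the 4F2hc partner that exports basic amino acids and is lost in lysinuric protein intolerance, was at 48.5, 118 and 126 CPM in congested kidney and 42.6, 81.6 and 105 CPM in IRI kidney. The difference was 0.19, 0.53 and 0.26 log2 units within numbers and 0.32 ± 0.18 with the block (SE; edgeR, unadjusted p 0.108, adjusted p 0.578). Without the block it ranged over 0.062 to 0.67 when a library was left out. Slc3a2, the 4F2hc heavy chain itself, was on the other side of 0, at 239, 203 and 222 CPM in congested kidney and 328, 221 and 173 CPM in IRI kidney (blocked -0.08 ± 0.22; without the block -0.12, or 0.0024 under total counts). Its within-number differences changed sign, at -0.46, -0.12 and 0.36.

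Slc43a2 (LAT4), a uniporter of branched-chain amino acids, phenylalanine and methionine, was the steadiest of these carriers, at 203, 214 and 218 CPM in congested kidney and 185, 207 and 199 CPM in IRI kidney. Slc38a3 (SNAT3), which takes up glutamine for ammonia production in acidosis, was at 87.3, 136 and 159 CPM in congested kidney and 108, 149 and 148 CPM in IRI kidney. Slc38a4 (SNAT4), a system A carrier, was low, with 2.96, 4.98 and 4.47 CPM in congested kidney and 1.75, 1.96 and 3.62 CPM in IRI kidney. It was higher in congested kidney within each number (0.71, 1.27 and 0.29), and its blocked log2 fold change was 0.79 ± 0.31 (SE; edgeR, unadjusted p 0.036, adjusted p 0.578). Without the block the log2 fold change of Slc38a4 was 0.76 ± 0.40 (SE). Slc7a6 (y+LAT2) and Slc7a2 (CAT2), low at 5.30 to 9.67 and 2.86 to 6.23 CPM over the 6 libraries, were also higher within each number, both by only 0.01 in number 3.

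**Figure D3:**
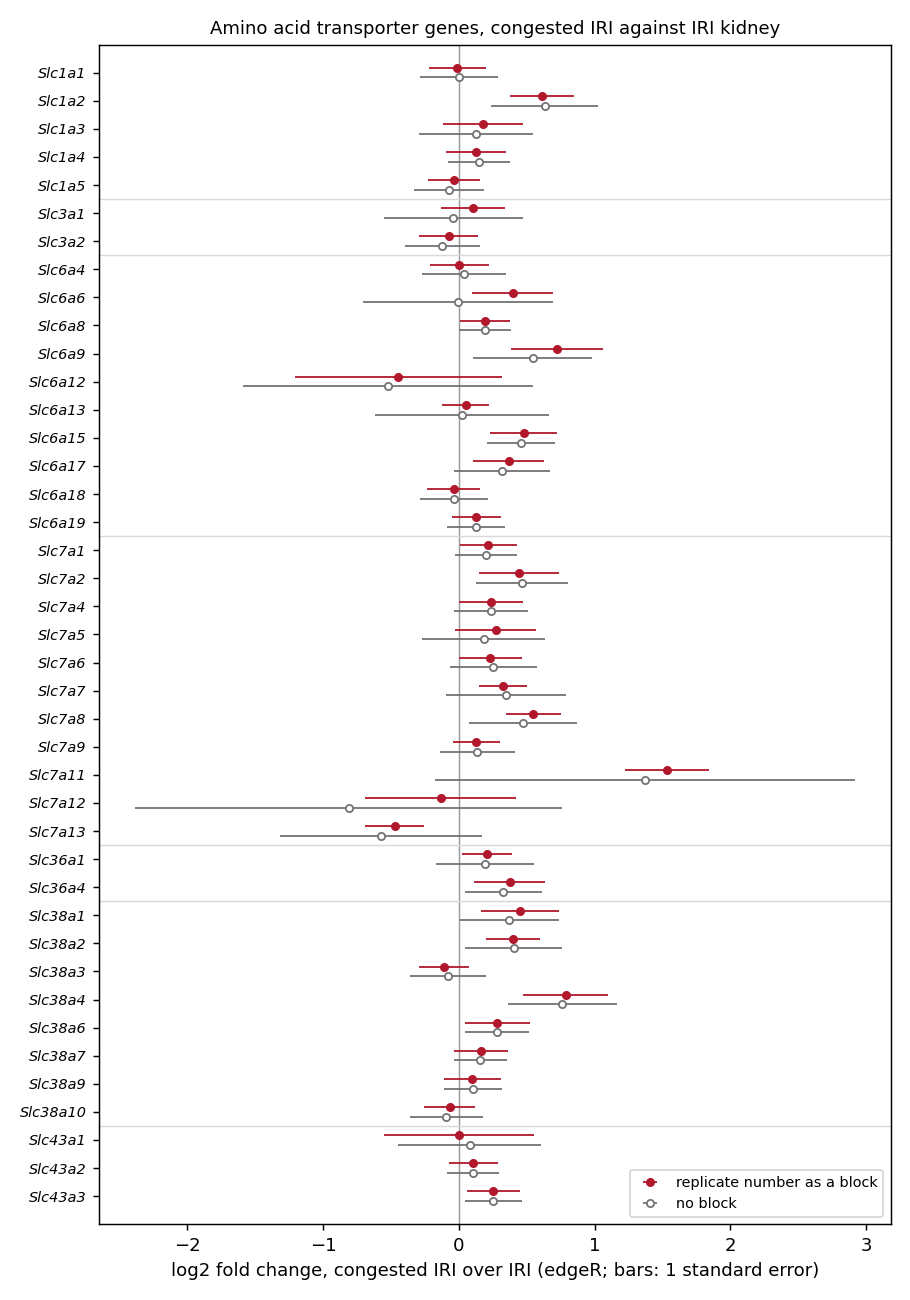
Log2 fold change, congested over IRI kidney, with its SE for the 41 tested members by family, from edgeR with the replicate block (filled) and without it (open); n = 3 libraries per group. No member passed an adjusted p of 0.05, and Slc7a11 lies farthest from 0 with an SE of 0.31 with the block and 1.55 without it.

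Carriers that supply growing or amino acid-deprived cells were above 0 for 8 of 9 tested with the block (median 0.27, or 0.17 with the length and GC trend removed), against 78% of all tested members. Within numbers 1, 2 and 3 there were 6, 7 and 4 of 9 above 0, and 1 was higher in all 3. Beside Slc7a11 these carriers included Slc38a2 (SNAT2), whose transcript is known to be raised by amino acid shortage and by hypertonicity. It was at 183, 94.6 and 101 CPM in congested kidney and 123, 61.1 and 102 CPM in IRI kidney, so numbers 1 and 2 were higher in congested kidney, by 0.57 and 0.63, and number 3 was level at -0.01. The blocked value of 0.40 ± 0.20 (SE; edgeR, unadjusted p 0.0831, adjusted p 0.578) was 0.17 once the length and GC trend was removed. The value without the block was 0.41 ± 0.36 (SE).

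Slc1a5 (ASCT2), a glutamine exchanger, was at 49.4, 43.1 and 39.4 CPM in congested kidney and 58.5, 48.1 and 32.1 CPM in IRI kidney. Slc1a4 (ASCT1), a serine and alanine exchanger, was at 37.9, 57.1 and 39.2 CPM in congested kidney and 45.5, 36.3 and 39.5 CPM in IRI kidney. Both pairs of groups overlapped, with blocked values of -0.04 ± 0.19 and 0.13 ± 0.22 (SE). Slc7a1 (CAT1), the widespread arginine carrier, was at 21.5, 19.5 and 18.1 CPM in congested kidney and 19.3, 13.1 and 19.1 CPM in IRI kidney. Slc6a9 (GLYT1), a glycine carrier, was at 16.0, 15.7 and 16.2 CPM in congested kidney, where the libraries were nearly equal, and at 5.24, 8.54 and 19.1 CPM in IRI kidney (blocked 0.72 ± 0.34; edgeR, unadjusted p 0.0652, adjusted p 0.578). Its value without the block was 0.54 ± 0.44 (SE). Slc7a5 (LAT1), Slc38a1 (SNAT1) and Slc43a1 (LAT3) were low, each under 10 CPM in all 6 libraries.

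Of 3 osmolyte and creatine carriers 2 had a blocked log2 fold change above 0. Slc6a6 (TauT) takes up taurine, an osmolyte of the medulla. It was at 229, 299.9 and 539 CPM in congested kidney and 114, 186 and 770.1 CPM in IRI kidney. In IRI kidney the libraries spanned the wider range, and congested kidney was higher in numbers 1 and 2 (1.00 and 0.69 log2 units) and lower in number 3 (-0.52). The log2 fold change was -0.0038 ± 0.70 without the block and 0.40 ± 0.30 with it (SE; edgeR adjusted p 0.999 and 0.615).

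Slc6a8 (CRT), the creatine carrier, was at 257, 236 and 222 CPM in congested kidney and 208, 206 and 212 CPM in IRI kidney. It was the only member whose groups did not overlap (3.38% of all features had every congested library above every IRI library), and 3.1% of all features but no member had every congested library below. Its log2 fold change was 0.19 ± 0.18 with the block (SE; edgeR adjusted p 0.674). Slc6a12 (BGT1), the betaine carrier of the medulla, was low and scattered, at 1.88, 0.146 and 2.82 CPM in congested kidney and 0.318, 1.54 and 5.12 CPM in IRI kidney.

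All 4 tested lysosomal members had blocked values above 0, as did 78% of members and 50.7% of features, with a median of 0.18. With the length and GC trend removed the median was 0.083 and Slc38a9 lay below 0, at -0.25. Within numbers 1, 2 and 3 there were 4, 4 and 1 of the 4 above 0. Slc36a1 (PAT1), a proton-coupled exporter from lysosomes, was at 43.2, 83.9 and 77.0 CPM in congested kidney and 36.5, 61.6 and 80.6 CPM in IRI kidney. Slc36a4 (PAT4) was at 12.9, 14.6 and 12.5 CPM in congested kidney and 8.90, 8.02 and 14.9 CPM in IRI kidney. For both, numbers 1 and 2 were higher in congested kidney and number 3 lower. Slc38a9, an arginine sensor of the mTORC1 pathway, was at 15.6, 14.3 and 11.8 CPM in congested kidney and 13.6, 11.8 and 13.4 CPM in IRI kidney. Slc38a7 (SNAT7), a lysosomal glutamine exporter, was at 16.1, 14.8 and 16.0 CPM in congested kidney and 13.0, 13.5 and 15.5 CPM in IRI kidney, higher within each number by 0.31, 0.13 and 0.04.

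Carriers best known from neurons and glia were also read. Slc1a2 (EAAT2, or GLT-1), a glutamate carrier of astrocytes, was at 11.4, 5.71 and 6.04 CPM in congested kidney and 6.91, 4.01 and 3.97 CPM in IRI kidney. It was higher within each number (0.71, 0.49 and 0.58), with a blocked log2 fold change of 0.61 ± 0.24 (SE; edgeR, unadjusted p 0.0309, adjusted p 0.578). Without the block the log2 fold change was 0.63 ± 0.39 (SE). The longest transcript of Slc1a2 has 11595 bases, and with the length and GC trend removed the blocked value was 0.21.

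Slc6a15 (B0AT2), a neuronal carrier of branched-chain amino acids and proline, was at 46.5, 42.0 and 33.0 CPM in congested kidney and 26.8, 23.6 and 38.0 CPM in IRI kidney (blocked 0.48 ± 0.25; edgeR, unadjusted p 0.0879, adjusted p 0.578). Its value without the block was 0.46 ± 0.25 (SE). Number 3 was again the one in which congested kidney was not higher. Slc6a17 (NTT4), of synaptic vesicles, was at 27.8, 17.9 and 29.4 CPM in congested kidney and 12.8, 17.6 and 29.9 CPM in IRI kidney, a difference of 1.11 in number 1 and near 0 in the others. Slc6a4 (SERT), the serotonin carrier, was at 9.15, 12.3 and 18.4 CPM in congested kidney and 11.8, 11 and 16.0 CPM in IRI kidney.

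The remaining members of at least 10 CPM on average were Slc38a10, Slc38a6 and Slc43a3. Slc38a10 was at 140.3, 166 and 196 CPM in congested kidney and 125, 199 and 211 CPM in IRI kidney (blocked -0.07 ± 0.19, SE). Slc38a6 was at 11.3, 12.5 and 9.42 CPM in congested kidney and 8.98, 7.94 and 10.4 CPM in IRI kidney (0.28 ± 0.24). For Slc43a3, a carrier of nucleobases despite its family, the levels were 17, 21.5 and 19.1 CPM in congested kidney and 14.4, 15.4 and 18.5 CPM in IRI kidney (0.25 ± 0.20). Their groups overlapped. Slc1a3 and Slc7a4, the other low tested members, lay at 1.67 to 4.33 and 4.53 to 7.03 CPM over the 6 libraries, and Slc7a4 was higher within each number by 0.24, 0.21 and 0.24.

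The 13 members that were not tested had 0 to 26 counts in a library. They were Slc1a6, Slc1a7, Slc6a2, Slc6a3, Slc6a5, Slc6a7, Slc6a14, Slc6a16, Slc7a3, Slc7a10, Slc7a15, Slc36a2 and Slc38a11. Slc36a2 (PAT2), an apical glycine and proline carrier, had 0, 26 and 5 counts in congested kidney and 0, 0 and 1 in IRI kidney, so 1 library held most of its reads. Each of the other 12 had at most 9 counts in any library.

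By family, the tested members were 5 of 7 in SLC1, 2 of 2 in SLC3, 10 of 16 in SLC6, 11 of 14 in SLC7, 2 of 3 in SLC36, 8 of 9 in SLC38 and 3 of 3 in SLC43. With the block, values above 0 were found for 3 in SLC1, 1 in SLC3, 8 in SLC6, 9 in SLC7, 2 in SLC36, 6 in SLC38 and 3 in SLC43. The family medians ran from 0.01 in SLC3 to 0.29 in SLC36, which holds 2 tested genes, with 0.24 in SLC7. With the length and GC trend removed they were 0.10 in SLC3, 0.083 in SLC36, 0.25 in SLC7 and -0.036 in SLC43.

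Transporters differed more between replicate numbers than between the groups. In edgeR with group as a covariate, 7 of 41 members (17.1%) differed between numbers at an adjusted p under 0.05, against 1143 of all features (7.94%). The p-values here test any difference among the 3 numbers, not number 1 against the others. The differences given are of mean log2 CPM, number 1 minus numbers 2 and 3, and were not tested themselves. Of these 7, Slc7a11 was higher in number 1 than in numbers 2 and 3, by 4.29 log2 units (edgeR adjusted p 0.00138 for any difference among numbers). The other 6 were lower in number 1. They were Slc7a12 (-4.42), a carrier close in sequence to Slc7a13, with Slc7a13 itself (-2.21), Slc6a13 (-1.86), Slc3a1 (-1.28), Slc6a6 (-1.27) and Slc7a7 (-1.22). Their edgeR adjusted p-values for any difference among numbers were 0.00452 to 0.039.

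These directions held in both groups, as the values per library given above show. Slc7a12 was at 0.269, 2.86 and 9.57 CPM in congested kidney and 0, 1.54 and 20.9 CPM in IRI kidney, with 0 counts in IRI replicate 1, so its difference in log2 CPM depends on the prior count. The median over members of number 1 minus numbers 2 and 3 was -0.29, against -0.0052 for all features. Of 8 S3 markers 6 differed between numbers, with a median of -1.90, and all 6 tubular injury markers did, with a median of 1.80. Their part in the differences of these carriers was not tested, and the labels do not say what a number shares.

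Without replicate 1 of both groups, an alternative added after seeing the data, 153 features (1.06%) and 3 members differed between numbers 3 and 2 in edgeR. Slc7a12 was higher in number 3 by 2.7 log2 units (edgeR adjusted p 4.76e-07) and Slc6a6 by 1.45 (edgeR adjusted p 0.0101), and so was Slc6a12 by 2.49 (edgeR adjusted p 0.000757). This fit has 1 residual degree of freedom.

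**Figure D4:**
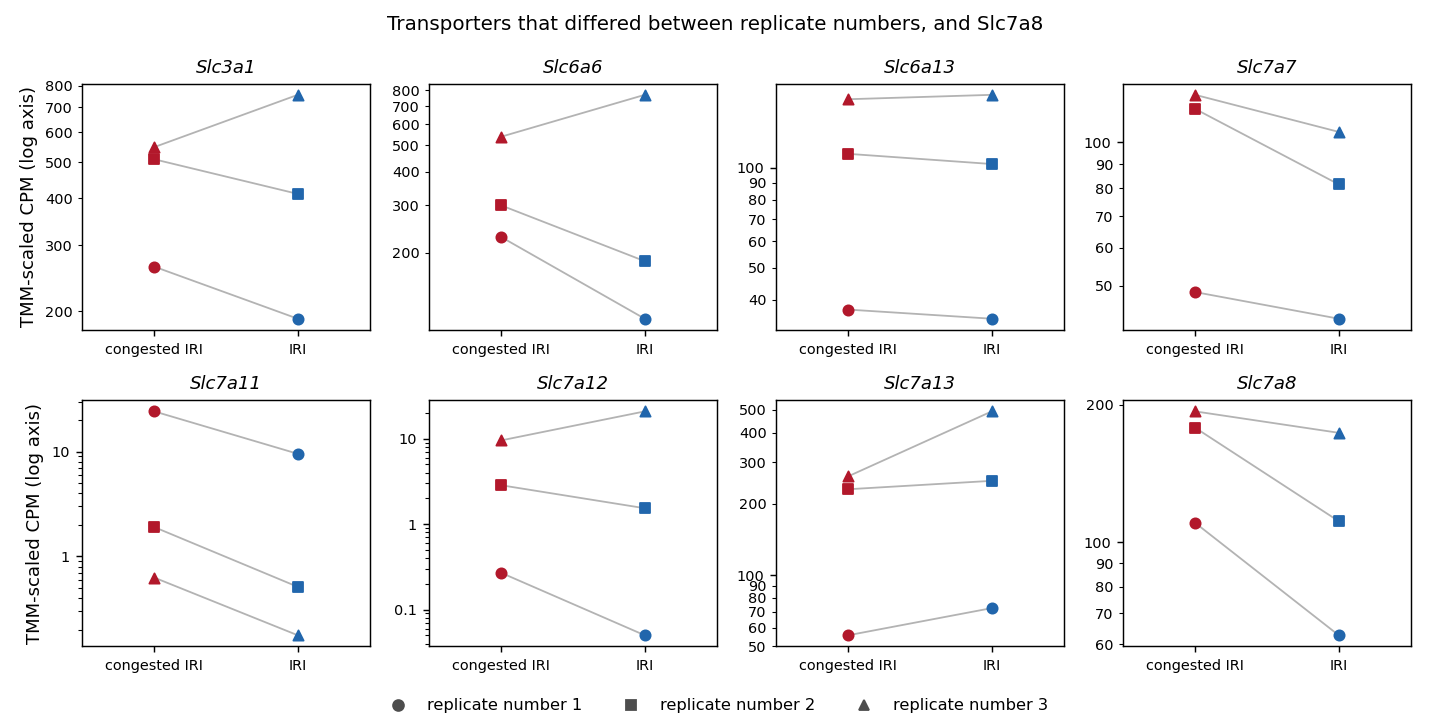
TMM-scaled CPM per library (log axis, congested libraries left of IRI libraries) for the 7 members that differed between replicate numbers and for Slc7a8. Points are single libraries with no error, and the 0 of Slc7a12 in IRI replicate 1 is drawn at 0.05; replicate 1 is the highest library of its group for Slc7a11 and the lowest for the other 7.

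Other amino acid genes outside the 7 families gave no call in either direction in edgeR with or without the block. Of 17 tested carriers outside the families, 10 were above 0 with the block (median 0.01), and the smallest unadjusted p was that of Slc15a2 (PEPT2), the apical peptide carrier. It was at 41.0, 92.4 and 84.7 CPM in congested kidney and 64.4, 138 and 126 CPM in IRI kidney, lower within each number (blocked -0.60 ± 0.17, SE; edgeR, unadjusted p 0.00814, adjusted p 0.578). The value of Slc15a2 without the block was -0.59 ± 0.39 (SE). Of 7 accessory proteins, which bring B0AT1 and its relatives to the membrane or regulate carriers, 2 were above 0 (median -0.05), with Arl6ip5 at -0.18, Nedd4l at 0.13 and Anpep at -0.11.

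Of 24 tested targets of the ATF4 amino acid response, a pathway known to drive Slc7a11, 8 were above 0 with the block and the median was -0.19, or -0.0039 with the length and GC trend removed. In numbers 1, 2 and 3 there were 7, 8 and 17 of 24 above 0, with medians of -0.41, -0.26 and 0.15. Cebpb was at 25.7, 10.7 and 7.06 CPM in congested kidney and 45.9, 14.4 and 13.1 CPM in IRI kidney (blocked -0.72 ± 0.20, SE). Nupr1 was also below 0 (-0.66) and Aldh1l2 above it (1.65), all at an edgeR adjusted p of 0.578. Of 21 genes of amino acid sensing upstream of mTORC1, 10 were above 0 (median -0.07), with Rptor at 0.56, Sesn3 at 0.59 and Nprl2 at -0.49.

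The enzymes that use amino acids in the tubule lay mostly below 0 in numbers 1 and 2. Of 42 tested, 6 were above 0 with the block (median -0.20), 11 were lower within all 3 numbers and 0 higher (13.1% of all features each way). The median was -0.10 with the length and GC trend removed. Number 3 did not share this side, with 8, 7 and 23 of 42 above 0 in numbers 1, 2 and 3 and a median of 0.019 in number 3. Gcsh, of the glycine cleavage system, was at 123, 143 and 158 CPM in congested kidney and 218, 235 and 168 CPM in IRI kidney, which did not overlap (blocked -0.54 ± 0.21, SE). Bcat2 and Cdo1 had blocked values of -0.63 and -0.45, all 3 at an edgeR adjusted p of 0.578. No test compared these lists with the carriers.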

How the data were processed

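The authors deposited a table of raw read counts per gene, in whole numbers, for 6 libraries of a stranded poly(A) kit. Per the submitters' processing notes, STAR 2.7.10a, featureCounts, Subread and GRCm38 were used, in roles that are not stated. The sources used here do not give the annotation, multimapping rule or strand setting, and overlapping or antisense genes may share reads.

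Features with at least 10 counts in at least 3 libraries entered the test of edgeR 4.0.16 under R 4.3.3 (TMM factors, robust quasi-likelihood F test, Benjamini-Hochberg over 14398 features, called at an adjusted p under 0.05). Log2 CPM used a prior count of 2. The test without the replicate block is the main one. Alternatives used DESeq2 1.42.0, limma 3.58.1 (voom) and a length and GC trend fitted with mgcv 1.9.3 (basis 6, 95.6% of features with a length). Only the edgeR fits with all libraries, for the groups without and with the block and for the replicate numbers, were run on simulated data. The DESeq2, voom, length and GC, and leave-out fits were not. The outcome of the simulated runs is not given here. Transcript lengths are of the longest GENCODE M21 transcript.

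Members and lists were chosen with earlier results of these data known. Values per library are given for members averaging at least 10 CPM or with an unadjusted p under 0.05 in either fit, and up to 3 genes with the smallest blocked p are named per other list. The low members Slc1a3, Slc6a12, Slc7a2, Slc7a4, Slc7a5, Slc7a6, Slc7a12, Slc38a1 and Slc43a1 fall outside that rule and were named after their values were seen.

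Libraries of a group differed beyond sampling noise (chi-square per degree of freedom 18.7 to 192). Deviations from the group means correlated at 0.719, 0.342 and 0.427 between congested and IRI libraries numbered 1, 2 and 3, each above 0.1, so the numbers were taken to pair the libraries, although the labels do not say so. Crossed, replicates 2 and 3 correlated at 0.242 (congested 2 with IRI 3) and 0.395 (congested 3 with IRI 2), which is also above 0.1. The correlations therefore set number 1 apart but cannot settle how replicates 2 and 3 pair between the groups. For these, the differences within numbers and the block rest on the numbering alone. The common biological coefficient of variation was 0.211 in the fit with the block, against 0.338 in the fit lacking it.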

Additional observations from a re-analysis of the deposited data

How the results depend on the processing

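No member was called between congested and IRI kidney in any fit with all 3 replicate numbers or with single libraries left out. With the replicate block the count of called features stayed at 0, and DESeq2 with the block called 8. Leaving a replicate number out of both groups in the fit with the block, which was added after seeing the data, called 10 features without number 1, 9 without number 2 and 5487 without number 3, where 12 members passed. The cause was not tested. The blocked fit changed no other call. Without replicate 1 of both groups the count of features differing between numbers was 153 in place of 1143, and of members 3 in place of 7, a fit with fewer libraries. The likelihood ratio test of DESeq2 gave 1854 features. The members' median lay between 0.11 and 0.37 in every alternative run.

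Members near 0 changed sign with the setting. Total counts move the median of all features to 0.095, so the changes of sign there come with a shift of all features, for Slc1a5 (0.045), Slc38a3 (0.021), Slc3a2 (0.0024), Slc6a18 (0.056), Slc3a1 (0.025) and Slc6a6 (0.041). The replicate block gave 0.10 for Slc3a1, -0.010 for Slc1a1 and 0.40 for Slc6a6. The block with the length and GC trend removed gave Slc1a5 0.018, Slc3a1 0.22, Slc1a1 -0.056, Slc6a6 0.18, Slc43a2 -0.15, Slc7a1 -0.040 and Slc38a9 -0.25. DESeq2 with the replicate block gave Slc6a4 -0.0065, Slc3a1 0.092, Slc1a1 -0.021 and Slc6a6 0.39. Limma-voom gave Slc3a1 0.091, Slc1a1 -0.016 and Slc6a6 0.38. RLE factors gave -0.0063 and DESeq2 -0.0062 for Slc1a1. Without replicate 1 of both groups Slc1a5 was 0.041 and Slc3a2 0.11, and with the block as well Slc1a5 was 0.067, Slc3a2 0.12 and Slc6a6 0.087. The block without number 2 gave Slc1a5 0.023, Slc1a4 -0.14, Slc6a4 -0.075, Slc1a1 -0.22, Slc6a6 0.24 and Slc38a10 0.028. The block without number 3 gave Slc6a4 -0.10, Slc6a18 0.031, Slc3a1 0.38 and Slc6a6 0.84.

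With each library left out in turn, the log2 fold change without the block ranged over -1.42 to 4.64 for Slc7a11, -1.02 to 0.18 for Slc7a13, -0.43 to 1.24 for Slc6a6, -0.45 to 0.58 for Slc6a13, -0.40 to 0.55 for Slc3a1, -0.31 to 0.17 for Slc3a2, -0.28 to 0.14 for Slc1a5, -0.27 to 0.13 for Slc38a3, -0.069 to 0.25 for Slc1a4, -0.061 to 0.47 for Slc36a1, -0.27 to 0.25 for Slc6a4, -0.13 to 0.078 for Slc6a18, -0.12 to 0.22 for Slc1a1, -0.024 to 0.32 for Slc7a9 and -0.29 to 0.047 for Slc38a10. Without a change of sign it ranged over 0.062 to 0.67 for Slc7a7, 0.040 to 0.64 for Slc38a2, 0.24 to 0.95 for Slc1a2, 0.21 to 1.21 for Slc6a9, 0.18 to 0.88 for Slc7a8 and 0.57 to 1.16 for Slc38a4. Counting limits the low members most, and Slc7a11 had 2 to 26 counts in numbers 2 and 3.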
